A study of Trichoderma guizhouense with 100 samples.

Results

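The comparison described here is cellulose against xylan in the ΔTgace2 mutant of the filamentous fungus Trichoderma guizhouense NJAU4742 after 72 h on either polymer, across all genes. The members are the 6 libraries that the labels give as strain delta_Tgace2, sampled at 72 h, 3 on cellulose and 3 on xylan, out of 100 mRNA libraries in the series. Of the 11244 genes in the table, 10026 exceeded 1 RPKM (reads per kilobase of gene, scaled to the mapped reads of the library) in at least 2 libraries and were tested. ΔTgace2 lacks Tgace2 (OPB44681) and carries a hygromycin resistance (hph) cassette in its place. Transformants were selected on hygromycin B and checked by PCR, and the number of independent transformants behind the libraries is not given in the sources used here. The cellulose group is ΔTgace2 mycelium given microcrystalline cellulose (Avicel) as sole carbon source for 72 h, and the xylan group is the same strain given sugarcane bagasse xylan for 72 h. Mycelia of all groups were first grown on glucose and washed before the transfer. The same pair of substrates in ΔTgace1, in the wild type (WT) and in ΔTgace2 at 24 h serve only to show where the 72 h comparison differs. ΔTgace2 at 4 h on both substrates and at 0 h on glucose is given for the time course. ΔTgace1 lacks Tgace1 and carries the hph cassette in its place. WT is strain NJAU4742 without a deletion, so it differs from ΔTgace2 in both the gene and the cassette.

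Cellulose is a chain of β-1,4-linked glucose that exoglucanases degrade from its ends and endoglucanases from within, while lytic polysaccharide monooxygenases open crystalline stretches and β-glucosidases split the released cellobiose into glucose. Xylan is a chain of β-1,4-linked xylose whose backbone is cut by endoxylanases and whose acetyl, arabinose and glucuronic acid decorations are removed by esterases and side-chain glycosidases, with the pentoses then entering metabolism through reductases and dehydrogenases. In Trichoderma the zinc cluster protein XYR1 activates both sets of genes, ACE3 acts beside it, and CRE1 represses them on glucose.

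The deleted gene matched the labels. OPB44681 was listed at 0 in 20 of 21 ΔTgace2 libraries and at 0.163 RPKM in the other, against 1.59 to 8.09 RPKM in 28 WT libraries. The 6 libraries of the comparison summed to between 1634872 and 1966237 RPKM on cellulose and between 1734280 and 1998205 RPKM on xylan. Pearson correlations across genes of log2(RPKM + 1) lay between 0.977 and 0.985 within cellulose, between 0.986 and 0.987 within xylan, and between 0.921 and 0.947 across the substrates, so each library was closest to its own group. The table gives RPKM without read counts, so the number of reads per library could not be read from it. Relative depth was estimated from the most frequent ratio between low non-zero values of the same genes in a library and in the first xylan library. It was 0.981 to 1.20 on cellulose and 0.960 to 1.10 on xylan, in units of that xylan library. The estimate takes the most frequent ratio to stand for equal numbers of fragments. In a bulk culture, fewer cells of a kind and less RNA per cell cannot be told apart. The conidiation regulators WetA (OPB37120) and AbaA (OPB44327), markers of developing spores, had 26 to 32.6 and 2.91 to 3.87 RPKM on cellulose against 43 to 49.8 and 12.5 to 13.5 RPKM on xylan, and the conidiation gene con-10 (OPB41395) exceeded 0 in a single library of each substrate. The 3 markers summed to 172 RPKM in cellulose replicate 1, against 32.8 to 36.4 RPKM in the other cellulose libraries. On xylan they summed to 180 RPKM in replicate 3, against 55.5 to 59.4 RPKM in the others. None of these 3 markers was called by the definition below, although 2 were lower at an unadjusted p of at most 0.05 in limma's test. Their part in the results was not tested.

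A gene was called when the adjusted p of limma's moderated test was at most 0.01, the difference of mean log2(RPKM + 1), cellulose minus xylan, was at least 2 in size, and the mean exceeded 2 RPKM in the higher group. On this definition 220 genes were higher on cellulose, or 2.19% of the genes tested, and 142 were lower, or 1.42%. In all 362 the 3 cellulose libraries did not overlap with the 3 xylan libraries, a property that 24.8% of all tested genes had in the upward direction and 24.4% in the downward direction. Among the called genes, 5 of the higher and 5 of the lower ones were listed at 0 in every library of the other substrate, and 95 and 72 carried no informative annotation. For some genes lower on cellulose, the 3 cellulose libraries were more spread than the 3 xylan libraries on the log2(RPKM + 1) scale. Examples are xyn2 (OPB43840) and the ferrooxidoreductase OPB42382, described below. Cellulose replicate 2 held the highest cellulose value of 90 of the 137 lower genes that had any reads on cellulose, compared with 37.5% of all genes. Among the 220 higher genes, the same library held the lowest cellulose value more often than either other cellulose library did. Its correlations with the xylan libraries, 0.938 to 0.947, were above those of the other cellulose libraries. Without cellulose replicate 2 the counts were 252 and 164. When the 6 libraries were fitted alone, 10 of the called genes described below (OPB46883, OPB43840, OPB46304, OPB36160, OPB42335, OPB40340, OPB42382, OPB42381, OPB43505 and OPB40672) had an adjusted p between 0.0103 and 0.0752.

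**Figure D1:**
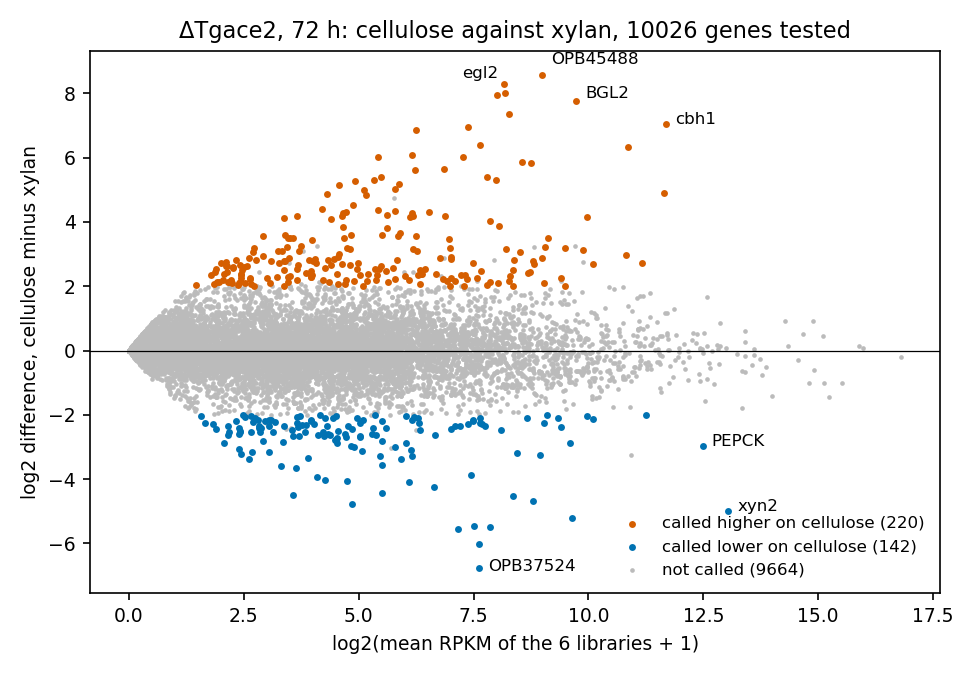
Difference of mean log2(RPKM + 1), cellulose minus xylan, in ΔTgace2 at 72 h (vertical axis) against log2 of the mean RPKM of the 6 libraries plus 1 (horizontal axis), 1 point per tested gene. The 220 genes called higher (orange) reach 8.56 and include cbh1, egl2 and BGL2, and the 142 called lower (blue) reach -6.77 and include xyn2 and PEPCK.

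Cellulases and β-glucosidases stood at the high end of the gene lists and the ribosome biogenesis list at the low end. Of 11 cellulases tested, 7 rose, with a list median of 6.03, and of 11 β-glucosidases 6 rose, with a list median of 2.49, beside a median of 0.01 over all tested genes. The 9 xylanases were split, with 2 higher, 3 lower and a median of 0.23, which was -0.23 without cellulose replicate 2. Counts in all lists, here and below, stand beside the 2.19% higher and 1.42% lower of all genes. Among 26 genes of glycolysis and the TCA cycle, limma called 0, with 7 higher and 4 lower at an unadjusted p of at most 0.05, and among 74 genes of the secretory pathway it called 0, with 17 higher and 15 lower at that limit. Fatty acid oxidation and peroxisomes (43 genes) also held 0 calls by limma, with 9 higher and 6 lower at that limit. Of 38 wall glucanases 1 rose and 1 fell (median 0.55), of 146 proteases 1 rose and 3 fell (0.12), and of 46 heat shock proteins and chaperones 2 rose (0.15). Of 55 cytochrome P450 genes 2 rose and 2 fell (0.06), of 22 secondary metabolism genes 2 rose and 1 fell (0.48), of 25 redox defence genes 1 rose (0.35), and of 224 Zn2Cys6 regulators 3 rose and 3 fell (-0.004).

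**Figure D2:**
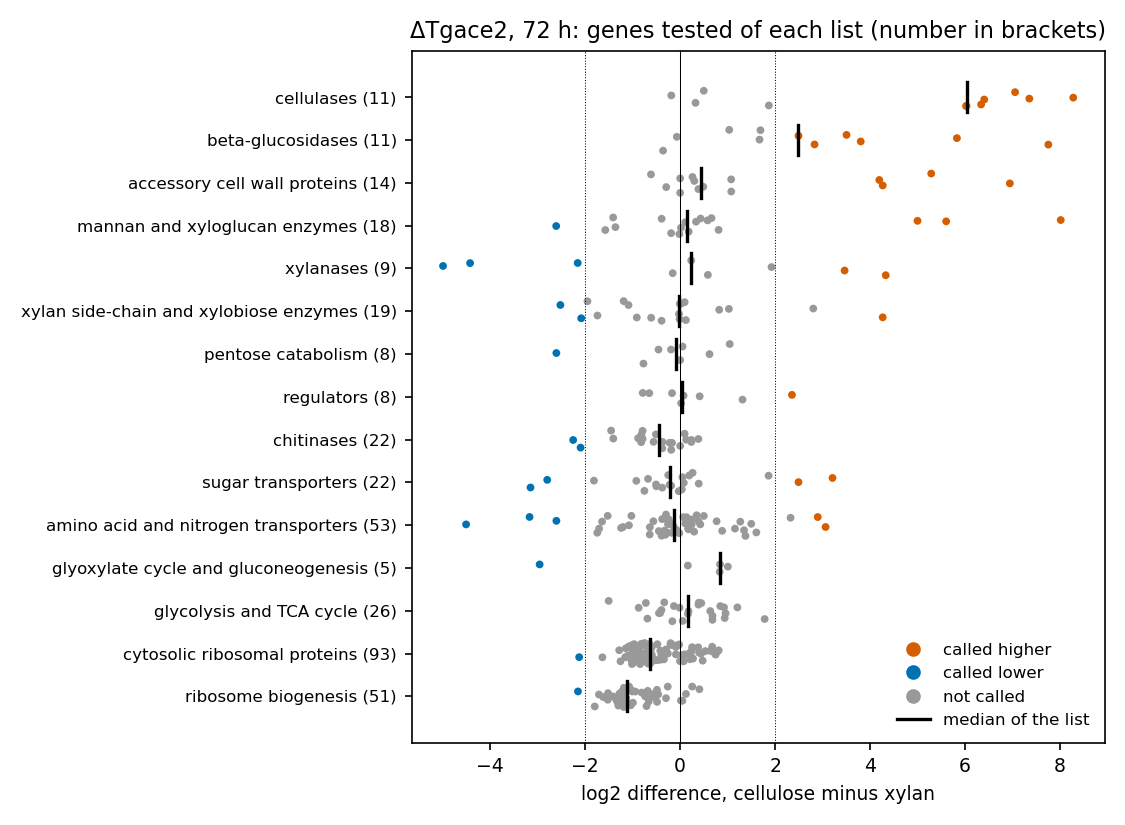
Difference of log2(RPKM + 1), cellulose minus xylan, in ΔTgace2 at 72 h for each tested gene of 15 lists, with called genes in orange (higher) or blue (lower), the list median as a black bar and dotted lines at the limits of -2 and 2. Cellulases (median 6.03) and β-glucosidases (2.49) lie to the right, and ribosome biogenesis (-1.12) to the left with few points beyond the limit.

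The major cellulases were abundant on cellulose and scarce on xylan. Exoglucanase cbh1 (OPB45635), which releases cellobiose from reducing chain ends, had 4176, 8344 and 7204 RPKM on cellulose and 53.8, 37.7 and 49.5 RPKM on xylan. Exoglucanase cbh2 (OPB43438), which works from the other end, had 2424, 4864 and 3679 RPKM on cellulose and 50.4, 35.4 and 42.8 RPKM on xylan. For both genes the lowest cellulose library stood far above the highest xylan library. The differences were 7.05 ± 1.19 (SE) with an adjusted p of 4.11e-06 for cbh1 and 6.34 ± 1.13 with an adjusted p of 1.15e-05 for cbh2. Both were still detected on xylan, unlike several endoglucanases that were close to 0 there.

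Among the endoglucanases, some genes rose by large differences and others were not called. One of the 2 genes annotated as egl2 (OPB43431), a GH5 endoglucanase, had 264, 929.8 and 510.3 RPKM on cellulose against 0.981, 0.292 and 0.642 RPKM on xylan, a difference of 8.28 ± 0.81 (adjusted p = 2.50e-12). A GH12 endoglucanase (OPB41394) had 164, 1060.3 and 608 RPKM on cellulose and 4.03, 0.974 and 1.46 RPKM on xylan, a difference of 7.35. In both genes the first cellulose library was the lowest and the second the highest, and no xylan library came near them. The other egl2 gene (OPB37031) rose by 6.02, and the lytic monooxygenase genes cel61a (OPB41190) and cel61b (OPB46655), still annotated as endoglucanases, rose by 6.03 and 6.40. The remaining tested members were more even between the substrates. The membrane-bound endoglucanase CEL5b (OPB46276) had a difference of 1.87, with 333 to 434 RPKM on cellulose and 96.0 to 124 RPKM on xylan, under the limit of 2. A further GH12 endoglucanase (OPB37643) and a GH61 monooxygenase (OPB37570) had differences of 0.50 and 0.32. Summed over the list, cellulase transcripts reached 12899 ± 4501 RPKM (SD, n = 3) on cellulose and 439.8 ± 42.4 RPKM (SD, n = 3) on xylan.

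β-glucosidases of both the intracellular and the secreted kind rose. BGL2/CEL1a (OPB39337), a GH1 enzyme of the type that cleaves cellobiose inside the cell, had 1337, 2085 and 1636 RPKM on cellulose and 7.52, 6.29 and 6.31 RPKM on xylan, a difference of 7.75 ± 0.78 (adjusted p = 3.93e-12). Its GH1 relative CEL1b (OPB36831) had 706, 969 and 863 RPKM on cellulose and 15.1, 11.7 and 14.7 RPKM on xylan, a difference of 5.83. The 2 GH1 genes thus had both the highest levels and the largest differences of the list. The extracellular enzyme BGL1/CEL3a (OPB36250) rose by 3.80, to 55.8 to 133 RPKM on cellulose against 4.06 to 7.35 RPKM on xylan. The GH3 genes OPB38105, OPB41188 and CEL3e (OPB40831) rose by 3.50, 2.83 and 2.49. A GH3 β-glucosidase at low level (OPB41313) had a difference of -0.36, with 2.60 to 3.05 RPKM on cellulose and 3.62 to 4.06 RPKM on xylan. The list summed to 2928 ± 590 RPKM (SD, n = 3) on cellulose and 121 ± 10.6 RPKM (SD, n = 3) on xylan.

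Proteins that assist cellulases rose as well, in 4 of 14 tested accessory genes (28.6%, beside 2.19% of all tested genes), with a list median of 0.44. CIP1 (OPB41189), a secreted protein with a cellulose-binding domain, had 225, 371 and 397 RPKM on cellulose and 2.62, 0.547 and 2.20 RPKM on xylan, a difference of 6.94. OPB45638, annotated only as conserved hypothetical and placed in this list from the study's table of secreted proteins, rose by 5.29. An expansin-like gene (OPB46883), of a family that loosens wall polymers without hydrolysis, had 4.62, 37.7 and 27.2 RPKM on cellulose and was listed at 0 in the 3 xylan libraries (adjusted p = 2.95e-09). Its cellulose values spread widely, and in a fit of the 6 libraries alone its adjusted p was 0.0103.

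Of 18 mannan and xyloglucan enzymes, 3 rose (16.7%) and 1 fell (5.56%), beside 2.19% and 1.42% of all tested genes, with a median of 0.14. The GH5 gene OPB42282, of a family that holds both endoglucanases and mannanases, had 397, 788 and 561 RPKM on cellulose and 2.13, 1.39 and 0.365 RPKM on xylan, a difference of 8.02 ± 0.85 (adjusted p = 2.04e-11). The xyloglucanase cel74a (OPB46497) rose by 5.60 and a GH2 β-mannosidase (OPB37808), which finishes mannan degradation, by 5.0. The α-galactosidase agl2 (OPB44836), which removes galactose side groups, was the member that fell, by 2.61, with 3.0 to 5.07 RPKM on cellulose and 25 to 35.7 RPKM on xylan.

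**Figure D3:**
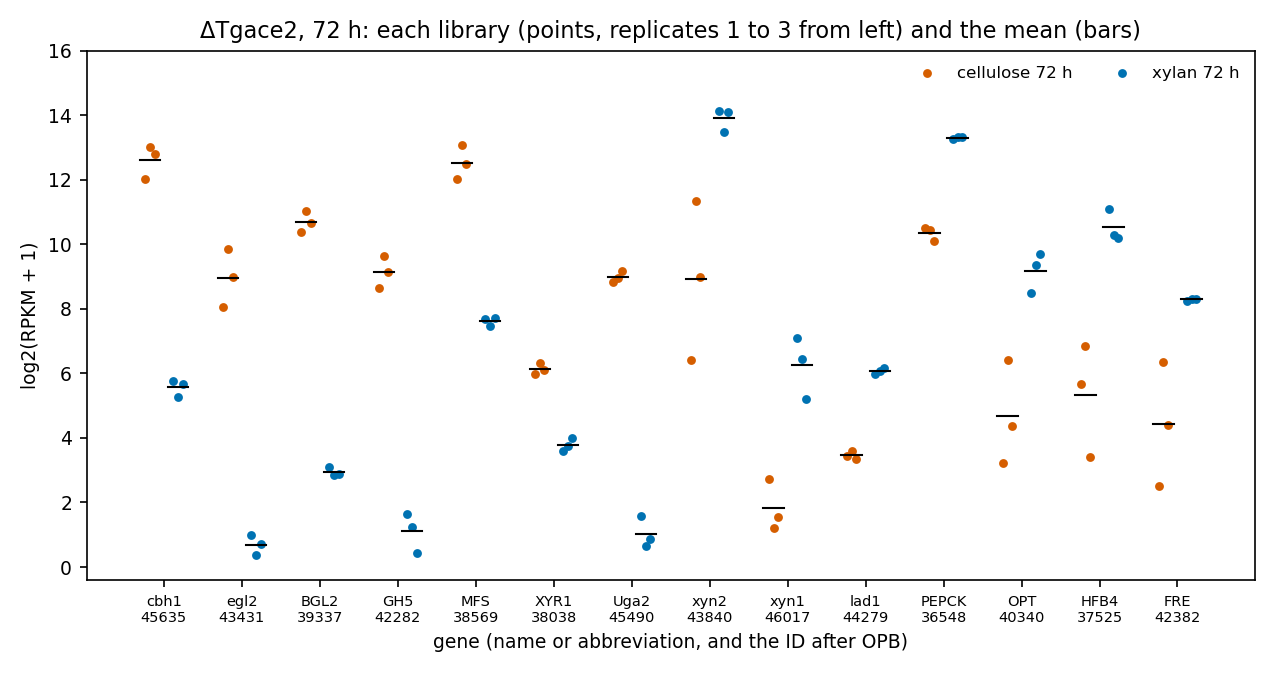
log2(RPKM + 1) of 14 genes in the 6 ΔTgace2 libraries at 72 h, cellulose (orange) left of xylan (blue), points for replicates 1 to 3 from left to right and bars for the mean on the log scale. For cbh1 the cellulose libraries hold 4176 to 8344 RPKM against 37.7 to 53.8 RPKM on xylan, and for xyn2 the cellulose libraries spread over 84.0 to 2620.1 RPKM against 11502 to 18005 RPKM on xylan (MFS: permease OPB38569, OPT: oligopeptide transporter, FRE: ferrooxidoreductase).

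Endoxylanases went in both directions. The GH11 endoxylanase xyn2 (OPB43840), the most abundant xylanase on xylan, had 84.0, 2620.1 and 506 RPKM on cellulose and 18005, 11502 and 17667 RPKM on xylan. The groups did not overlap, but the cellulose libraries themselves spread over a wide range, with replicate 2 highest. The difference was -4.99 ± 1.02 with an adjusted p of 0.000102 in the model of all groups, and an adjusted p of 0.0279 when the 6 libraries were fitted alone. A gene annotated as xyn1 (OPB46017) had 5.64, 1.32 and 1.92 RPKM on cellulose and 137, 85.6 and 36.2 RPKM on xylan, a fall of 4.42 (adjusted p = 8.91e-07). A further xyn1 gene (OPB46304) had 37.0, 10.8 and 29.6 RPKM on cellulose and 177, 104 and 64.5 RPKM on xylan. Its difference was -2.16 with an adjusted p of 0.00493, and the call was lost without cellulose replicate 2 (-1.65, adjusted p = 0.0607), without xylan replicate 1 (-1.79, adjusted p = 0.0438) and without xylan replicate 2 (-2.17, adjusted p = 0.0165).

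The xylanases that rose on cellulose were of families GH10 and GH30. The GH10 gene OPB45659 had 39.6, 170 and 104 RPKM on cellulose and 3.14, 3.69 and 3.63 RPKM on xylan, a difference of 4.33. The GH30 endoxylanase OPB43779 had 122, 315 and 251 RPKM on cellulose and 17.2, 16.8 and 21.5 RPKM on xylan, a difference of 3.46 with an adjusted p of 0.000963, which was 0.0242 with a pseudocount of 0.1 RPKM. Neither group of libraries overlapped with the other in these genes. A GH11 gene (OPB41202) had 822, 906 and 943 RPKM on cellulose and 407, 233 and 134 RPKM on xylan, again without overlap, yet its difference of 1.92 did not pass the test (adjusted p = 0.185). The GH10 enzyme XYN3 (OPB40690) and the GH30 enzyme XYN4 (OPB45639) had differences of 0.23 and 0.58 that did not pass it either. Xylanase transcripts summed to 2354 ± 1515 RPKM (SD, n = 3) on cellulose and 16230.2 ± 3717 RPKM (SD, n = 3) on xylan. On xylan xyn2 made up most of the sum, while on cellulose OPB41202 exceeded it in replicates 1 and 3.

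Enzymes for the side chains of xylan had a median of -0.03 over 19 tested genes, or -0.43 without cellulose replicate 2. Of these, 1 rose (5.26%) and 2 fell (10.5%), beside 2.19% and 1.42% of all tested genes. The glucuronoyl methylesterase OPB43780, which cuts the ester bond between glucuronic acid and lignin, had 61.3, 200 and 148 RPKM on cellulose and 6.49, 4.81 and 5.03 RPKM on xylan, a difference of 4.27. The arabinofuranosidase abf1 (OPB41212), which removes arabinose, fell by 2.52, with 0.662 to 2.35 RPKM on cellulose and 11.3 to 16.8 RPKM on xylan. A GH2 gene annotated as β-galactosidase or β-glucuronidase (OPB38657) had a difference of -2.08 (adjusted p = 0.00067), which was below 2 in size without cellulose replicate 3 (-1.998) and without xylan replicate 3 (-1.99). Acetylxylan esterase axe1 (OPB40352) had 416, 419 and 455 RPKM on cellulose and 71.6, 57.2 and 54.6 RPKM on xylan. These 6 values were separated and even within each group, but the difference of 2.80 had an adjusted p of 0.0537 in the model of all groups and 0.000729 in the fit of the 6 libraries alone. The CE5 acetylxylan esterase OPB46214, with 963, 759.8 and 890.4 RPKM on cellulose and 3443, 2202 and 3222 RPKM on xylan, had the opposite sign (-1.74, adjusted p = 0.144). The α-glucuronidase OPB39965 had a difference of -1.95, smaller in size than the limit of 2, and was not called. The β-xylosidase BXL1 (OPB36249), which splits xylobiose, had a difference of 0.82.

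Of 8 genes of pentose catabolism, 1 fell, or 12.5%, beside 1.42% of all tested genes. L-arabinitol 4-dehydrogenase lad1 (OPB44279), a step in the use of arabinose, had 9.89, 11.1 and 9.15 RPKM on cellulose and 62.2, 66.3 and 70.4 RPKM on xylan, a difference of -2.61 ± 0.32 (adjusted p = 2.68e-09). Its libraries were tight within each substrate and far apart between them. The first steps of xylose use were not separated. Xylose reductase xyl1 (OPB37877) had 625 to 776 RPKM on cellulose and 528 to 906 RPKM on xylan, a difference of 0.05 ± 0.30, and xylitol dehydrogenase XDH1 (OPB44156) had 29.1 to 59.1 RPKM on cellulose and 22.6 to 58.0 RPKM on xylan, a difference of 0.00 ± 0.35. Limma called 0 genes of this list higher, with 1 at an unadjusted p of at most 0.05.

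Among the 8 regulators of these genes, XYR1 (OPB38038) was the one that was called, or 12.5%, beside 2.19% of all tested genes. It had 62.2, 79.1 and 67.5 RPKM on cellulose and 11, 12.5 and 15 RPKM on xylan, a difference of 2.36 ± 0.40 (adjusted p = 4.60e-06). All cellulose libraries were above all xylan libraries by a wide margin. The ACE3 homolog OPB36832 had 139 to 158 RPKM on cellulose and 54 to 61.8 RPKM on xylan, a difference of 1.31 (adjusted p = 0.000127) that was under the limit in size. TgCLR-2 (OPB38568), a relative of the Neurospora cellulase activator CLR-2, had a difference of -0.17. The carbon catabolite repressor CRE1 (OPB38360, annotated as creA) had 667 to 881 RPKM on cellulose and 1003 to 1262 RPKM on xylan, a difference of -0.65 (adjusted p = 0.0699). Outside this list, a C2H2 transcription factor (OPB36160) fell by 2.66, with 4.49, 17.6 and 5.27 RPKM on cellulose and 61.8, 45.6 and 54.7 RPKM on xylan.

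Transporters of the major facilitator superfamily (MFS), which carry sugars and other small molecules, went both ways, with 8 of 177 higher and 7 lower. These were 4.52% and 3.95%, beside 2.19% and 1.42% of all tested genes. The permease OPB38569, whose ID follows that of TgCLR-2, had 4162, 8608 and 5735 RPKM on cellulose and 203, 177 and 209.8 RPKM on xylan, a difference of 4.90 ± 0.74 (adjusted p = 3.57e-07). The permease OPB36796 had 1183, 2777 and 1751 RPKM on cellulose and 74.1, 92.2 and 146 RPKM on xylan, a difference of 4.15. Among the 22 annotated sugar transporters 2 rose and 2 fell, or 9.09% each way. A permease annotated as a possible galactose carrier (OPB44520) rose by 3.21, while the hexose transporters OPB40913 and OPB42335 fell by 3.15 and 2.80. For OPB42335 the cellulose libraries held 1.98, 42.6 and 7.24 RPKM and the xylan libraries 91.4, 56.1 and 67.7 RPKM, and without cellulose replicate 1 the difference was -1.91 (adjusted p = 0.011).

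Over the 53 tested genes for amino acid and nitrogen transport, 2 rose (3.77%) and 3 fell (5.66%), beside 2.19% and 1.42% of all tested genes, with a median of -0.14. Outside that list, the carrier OPB37524, whose garbled annotation reads as a carboxylic acid transporter, had 1.78, 2.45 and 2.01 RPKM on cellulose and 266, 198 and 701 RPKM on xylan, the largest fall of the comparison at -6.77 ± 0.32 (adjusted p = 6.41e-28). Within the list, an oligopeptide transporter (OPB40340) had 8.28, 84.8 and 19.8 RPKM on cellulose and 363, 652 and 823 RPKM on xylan, a difference of -4.51. The permease for the amino acid GABA (4-aminobutyrate) (OPB39313) had 48.4, 130 and 46.7 RPKM on cellulose and 506, 838 and 529.9 RPKM on xylan, a difference of -3.17. Cellulose replicate 2 was the highest cellulose library in each of these 3 genes, and none reached the xylan range. In the opposite direction, the amino acid permease OPB39085 had 534, 582 and 843 RPKM on cellulose and 83.7, 92.8 and 55.9 RPKM on xylan, a difference of 3.06 that lost its call without cellulose replicate 3 (2.86, adjusted p = 0.0161) or xylan replicate 3 (2.85, adjusted p = 0.015).

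High-affinity iron uptake pairs a ferrooxidoreductase, a copper oxidase that oxidises ferrous iron, with an iron permease. The ferrooxidoreductase OPB42382 had 4.69, 80.4 and 20.2 RPKM on cellulose and 305, 317 and 317 RPKM on xylan, a difference of -3.87, and the iron transporter OPB42381 had 2.60, 39.8 and 13 RPKM on cellulose and 122, 121 and 124 RPKM on xylan, a difference of -3.28. Both genes were nearly constant on xylan and varied on cellulose, where replicate 1 was the lowest and replicate 2 the highest in both. Their adjusted p-values of 4.12e-08 and 2.09e-08 in the model of all groups were 0.027 and 0.034 in the fit of the 6 libraries alone. The other such pair, iron transporter OPB41258 and ferrooxidoreductase OPB41257, was not called, with differences of -1.05 and -1.42. Its xylan replicate 3 (156 and 29.1 RPKM) lay within the cellulose range, and without that library the difference of OPB41257 was -2.29 (adjusted p = 0.00434).

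Some of the largest rises belonged to genes outside polysaccharide degradation, with neighbouring IDs in 2 runs. The positions of the genes were not used here. In the first run, the succinate-semialdehyde dehydrogenase Uga2 (OPB45490), an enzyme of GABA breakdown, had 457, 498 and 571 RPKM on cellulose and 2.01, 0.582 and 0.817 RPKM on xylan, a difference of 7.95 ± 1.0 (adjusted p = 4.48e-09). The hypothetical gene OPB45488 had 1019, 837 and 1191 RPKM on cellulose and 3.01, 1.04 and 1.33 RPKM on xylan, the largest rise of the comparison at 8.56. Values of both genes were even across the cellulose libraries, unlike those of the cellulases. The polyketide synthase PKSX1 (OPB45495), a class of enzyme that builds secondary metabolites, rose by 4.85. A different succinate-semialdehyde dehydrogenase gene (OPB44287) went the other way, with 37.4, 25.6 and 19.2 RPKM on cellulose and 148, 231 and 139.9 RPKM on xylan, a fall of 2.63.

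In the second run, a short-chain dehydrogenase (OPB46141), a hypothetical gene (OPB46144) and an isoamyl alcohol oxidase (OPB46145) rose by 5.40, 6.08 and 5.39. In all 3 the third cellulose library was the highest and the second the lowest, with 617 and 245 RPKM for OPB46141. The same order held for the conserved hypothetical gene OPB40425, which had 166, 37.6 and 248 RPKM on cellulose and was listed at 0 in the 3 xylan libraries (adjusted p = 2.04e-05). Histidine acid phytase (OPB41695), which frees phosphate from phytate, rose by 4.40, with 25.8 to 40.4 RPKM on cellulose and 0.413 to 0.815 RPKM on xylan. Among falls, cellobiose dehydrogenase (OPB42171), an oxidase of cellobiose that can supply electrons to lytic monooxygenases, had 6.68, 8.69 and 2.91 RPKM on cellulose and 49.3, 54.9 and 51.0 RPKM on xylan, a difference of -2.99 (adjusted p = 1.59e-05). Its direction was thus opposite to that of cel61a and cel61b.

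Of 83 small secreted cysteine-rich proteins and hydrophobins, 5 rose (6.02%) and 4 fell (4.82%), with a median of 0.22. Over all tested genes 2.19% rose and 1.42% fell. Hydrophobin HFB4 (OPB37525), of a family that coats the surface of aerial hyphae and spores, had 50.3, 115.5 and 9.73 RPKM on cellulose and 2204, 1256 and 1184 RPKM on xylan, a difference of -5.21 ± 1.02 (adjusted p = 5.19e-05). The small secreted protein OPB44820 had 29.3, 47.5 and 20.6 RPKM on cellulose and 650.4, 670.2 and 1233 RPKM on xylan, a difference of -4.68. In both genes the highest cellulose library lay below the lowest xylan library. KTI11 (OPB43178), needed in yeast for diphthamide synthesis on elongation factor 2, was listed at 0 in all cellulose libraries and had 26.1, 21.3 and 18.3 RPKM on xylan (adjusted p = 0.000131). The hypothetical gene OPB36159, next in number to the C2H2 factor OPB36160, fell by 5.55.

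Phosphoenolpyruvate carboxykinase (PEPCK, OPB36548), a key enzyme of gluconeogenesis, had 1463, 1381 and 1102 RPKM on cellulose and 9883, 10313 and 10299 RPKM on xylan, a difference of -2.96 ± 0.50 (adjusted p = 4.91e-06). The other 4 tested genes of the glyoxylate cycle and gluconeogenesis had positive differences, with a list median of 0.83, so PEPCK did not share the sign of its list. Fructose-bisphosphate aldolase (OPB40445), a glycolytic enzyme, had 491 to 675 RPKM on cellulose and 1561 to 1615 RPKM on xylan, a difference of -1.51 that was under the limit. The small heat shock protein Hsp26/Hsp42 (OPB43709) had 886, 353 and 873 RPKM on cellulose and 105, 155 and 108 RPKM on xylan, a difference of 2.42 with an adjusted p of 0.00686, which lay between 0.0135 and 0.0397 when any library except cellulose replicate 2 was left out.

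Most genes of ribosome biogenesis had lower values on cellulose, by less than the limit for a call. Of 51 ribosome biogenesis genes, 46 had a negative difference and 38 had 3 cellulose libraries below all 3 xylan libraries, beside 24.4% of all genes. The median was -1.12, and 1 gene, the rRNA processing factor Bystin (OPB42039), was called, with 10.2, 14.2 and 10.5 RPKM on cellulose and 51.7, 64.4 and 48.7 RPKM on xylan. Of 93 cytosolic ribosomal proteins, 73 had a negative and 20 a positive difference, with a median of -0.63. In 64 of them the cellulose libraries were below all xylan libraries, and in 11 above them, beside 24.4% and 24.8% of all genes. The acidic stalk protein P2 (OPB47149) fell by 2.13, with 376, 492 and 360 RPKM on cellulose and 1763, 1836 and 1726 RPKM on xylan. Summed over the list, ribosomal protein transcripts reached 44938 ± 763 RPKM (SD, n = 3) on cellulose and 67982 ± 3904 RPKM (SD, n = 3) on xylan. The medians of both lists stayed negative when every library was scaled to the same RPKM total, at -1.01 and -0.53. The 177 mitochondrial proteins went the other way in sign, with 114 positive differences and a median of 0.24. Limma called 3 of them higher, or 1.69%, beside 2.19% of all tested genes.

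Chitinases, which degrade chitin of the fungal wall, had a median of -0.44 over 22 genes. Of these, 12 were lower without overlap and 2 were called lower, beside 24.4% and 1.42% of all tested genes. The endochitinase chit42 (OPB43505) had 0.983, 7.47 and 3.41 RPKM on cellulose and 14.5, 20.4 and 23.2 RPKM on xylan, a difference of -2.25 (adjusted p = 0.00399). A GH18 gene (OPB35984) had 1.01 to 2.07 RPKM on cellulose and 8.71 to 11.5 RPKM on xylan, a difference of -2.10 (adjusted p = 3.98e-07). Both lay close to the limit. Without cellulose replicate 1 their differences were -1.71 and -1.93, that of OPB35984 was -1.99 without xylan replicate 1, and chit42 also missed the adjusted p without cellulose replicate 3 (0.0136), xylan replicate 2 (0.0168) or xylan replicate 3 (0.021).

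The question whether the substrate difference was the same at 24 h was put as a difference of differences, ΔTgace2 at 72 h minus ΔTgace2 at 24 h. Broth was drawn from the cultures at each time point, and whether libraries of the 2 times come from the same flasks is not given. The interaction was called higher for 541 genes, or 5.4% of those tested, and lower for 601, or 5.99%. With all libraries scaled to the same RPKM total, which moved the median interaction of all genes to 0.13 from -0.02, the counts were 633 and 394. At 24 h alone, 398 genes were called higher on cellulose (3.97%) and 257 lower (2.56%). Of the 220 genes higher on cellulose at 72 h, 52 were also called higher at 24 h and 21 were called lower there. Of the 142 lower at 72 h, 13 were also lower and 23 were higher at 24 h.

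The cellulase cbh1 was high on cellulose at both times, whereas xyn2 exchanged its order. On cellulose, ΔTgace2 had 84.0, 2620.1 and 506 RPKM of xyn2 (OPB43840) at 72 h against 17153, 15619 and 15359 RPKM at 24 h. On xylan it had 18005, 11502 and 17667 RPKM at 72 h against 1278, 1663 and 1964 RPKM at 24 h. At 24 h xyn2 was thus higher on cellulose and at 72 h higher on xylan, an interaction of -8.31 ± 1.44 (adjusted p = 3.54e-06). PEPCK (OPB36548) showed the same exchange, with a difference of -2.96 at 72 h against 4.60 at 24 h and an interaction of -7.56. So did the oligopeptide transporter OPB40340 (-4.51 at 72 h against 5.02 at 24 h) and the carrier OPB37524 (-6.77 at 72 h against 5.27 at 24 h). The CE5 acetylxylan esterase OPB46214 was called higher on cellulose at 24 h (5.70) and was not called at 72 h (-1.74), an interaction of -7.44.

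XYN3 and XDH1, called at 24 h, were not called at 72 h. XYN3 (OPB40690) had 0.325, 6.56 and 0.901 RPKM on cellulose at 72 h against 442, 521 and 551 RPKM at 24 h, while on xylan it stayed under 2 RPKM at both times, so that its interaction was -8.14 (adjusted p = 2.04e-10). XDH1 (OPB44156) had 58.0, 22.6 and 40.5 RPKM on xylan at 72 h against 400.1, 469 and 492 RPKM at 24 h, and its interaction was 5.40 ± 0.49 (adjusted p = 7.21e-14). The xyn1 gene OPB46304 was lower on cellulose at both times (-2.16 at 72 h, -5.74 at 24 h), with a smaller difference at 72 h (interaction 3.59, adjusted p = 0.000659). A putative O-methyltransferase (OPB40672) was higher on cellulose at 72 h (4.39) and lower at 24 h (-8.06), the interaction being 12.44. Its 72 h cellulose values of 183, 12.3 and 49.2 RPKM were widely spread, and its 72 h call was lost without cellulose replicate 1 (3.44, adjusted p = 0.0217).

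**Figure D4:**
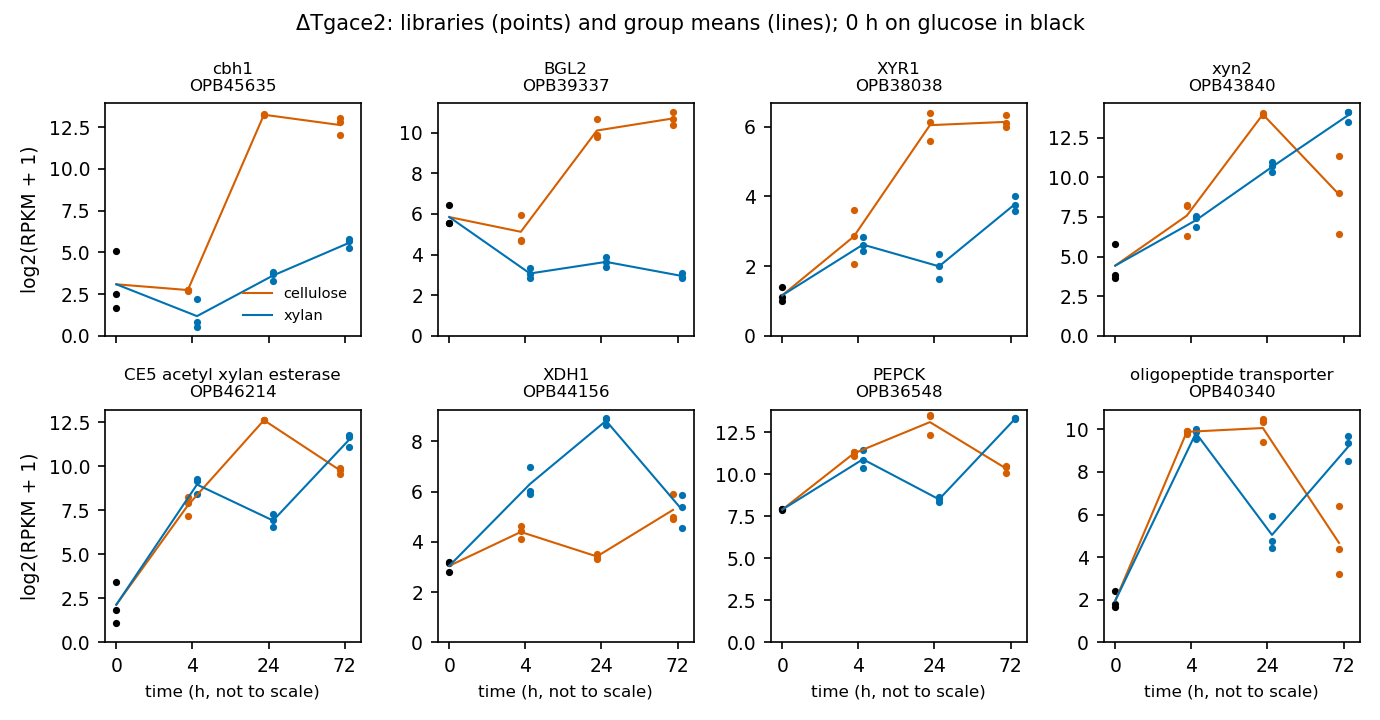
log2(RPKM + 1) of 8 genes in ΔTgace2 at 0 h on glucose (black) and at 4, 24 and 72 h on cellulose (orange) and xylan (blue), with points for libraries and lines through group means, and the time axis not to scale. For cbh1, BGL2 and XYR1 the cellulose libraries lie above xylan at 24 h and 72 h, while xyn2, PEPCK and the oligopeptide transporter change order between 24 h (differences of 3.31, 4.60 and 5.02) and 72 h (-4.99, -2.96 and -4.51).

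At 4 h fewer genes had been called. Limma called 22 genes higher (0.219%) and 47 lower (0.469%) on cellulose in ΔTgace2 at that time. Among genes described above, abf1 (OPB41212) had a difference of -5.43 at 4 h, with 1.91, 2.72 and 2.34 RPKM on cellulose and 254, 128 and 86.2 RPKM on xylan, and lad1 (OPB44279) one of -3.54. The β-mannosidase OPB37808, the permease OPB38569 and CEL1b (OPB36831) were called higher at 4 h, by 4.38, 3.25 and 2.32. The gene cbh1 (OPB45635) was not called at 4 h, with 5.80, 5.48 and 5.77 RPKM on cellulose and 0.760, 3.56 and 0.443 RPKM on xylan. XYR1 (OPB38038) had 11.3, 3.13 and 6.34 RPKM on cellulose and 6.09, 5.03 and 4.37 RPKM on xylan at 4 h, with the libraries of the substrates overlapping. At 24 h they no longer did, with 47.5, 68.8 and 83.1 RPKM on cellulose and 2.11, 2.98 and 4.08 RPKM on xylan. The level of XYR1 on cellulose at 72 h lay within the 24 h range.

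To ask where the substrate difference of ΔTgace2 differed from that of WT at 72 h, the WT difference was subtracted from it. The interaction was called higher for 217 genes, or 2.16%, and lower for 49, or 0.489%. These counts depend on scaling and on a WT library. WT cellulose replicate 2 summed to 724111 RPKM, compared with up to 2053078 RPKM in that group, and without it the counts were 299 and 234. With all libraries scaled to the same RPKM total, which moved the median interaction to -0.47 from 0.03, they were 77 and 203. In WT itself, 284 genes were called higher on cellulose (2.83%) and 483 lower (4.82%). Of the 220 genes higher on cellulose in ΔTgace2, 109 were also called higher in WT, and of the 142 lower ones 76 were also called lower in WT.

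The xylanase gene xyn1 (OPB46017) had mean differences of opposite sign in ΔTgace2 and WT. It fell on cellulose in ΔTgace2, by 4.42, whereas WT had 132, 1.45 and 49.6 RPKM on cellulose and 3.81, 1.12 and 2.78 RPKM on xylan, a difference of 2.92. The WT libraries overlapped, since cellulose replicate 2 (1.45 RPKM) lay below xylan replicates 1 and 3. The interaction was -7.34 ± 0.98 (adjusted p = 3.59e-08). A flavoprotein monooxygenase (OPB37175) had 130, 87.7 and 103 RPKM on cellulose and 21.6, 19.3 and 20.9 RPKM on xylan in ΔTgace2, a rise of 2.31, against 50.2, 1.97 and 20.2 RPKM on cellulose and 136, 131 and 138 RPKM on xylan in WT. The interaction of OPB37175 was 5.51 (adjusted p = 8.98e-08), and its 1.97 RPKM on cellulose in WT was replicate 2 as well. The 4-aminobutyrate aminotransferase OPB37206, the first enzyme of GABA breakdown, had a difference of -1.21 in ΔTgace2 and of 4.79 in WT, an interaction of -6.0 (adjusted p = 1.23e-08). In a fit of the 12 libraries of both strains alone, the adjusted p-values of these 3 interactions were 0.0511, 0.0276 and 0.0155.

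Uga2 (OPB45490) and OPB45488, with 457 to 1191 RPKM on cellulose in ΔTgace2, had 1.31 to 7.30 and 0.215 to 15 RPKM on cellulose in WT, and their interactions were 6.62 and 7.13 (adjusted p = 0.000418 and 1.23e-05). On xylan both genes were under 4 RPKM in either strain. With a pseudocount of 0.1 RPKM the adjusted p of Uga2 was 0.0242. For the endoglucanase egl2 (OPB43431) the interaction was 4.16 (adjusted p = 0.00752). WT cellulose replicate 2 listed this gene at 0 while the other WT cellulose libraries had 168 and 30.3 RPKM, and without that library the interaction was 2.10 (adjusted p = 0.111). Its call was also lost without ΔTgace2 cellulose replicate 2 or 3 or any 1 xylan library of either strain (adjusted p of 0.0111 to 0.0327). It was 0.97 (adjusted p = 0.391) with array weights and 3.20 (adjusted p = 0.227) with a pseudocount of 0.1 RPKM, and its adjusted p was 0.343 in the fit of the 12 libraries.

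Against ΔTgace1 at 72 h, fewer genes differed in their substrate difference. Limma called 0 genes higher, or 0%, with 428 at an unadjusted p of at most 0.05, and 17 lower, or 0.17%. Scaling every library to the same RPKM total gave 24 higher and 16 lower and moved the median interaction to 0.34 from -0.04. As deposited, the ΔTgace1 libraries summed to 833461 to 1012435 RPKM on cellulose and 597057 to 776044 RPKM on xylan. All of these totals lay below those of the 6 ΔTgace2 libraries. The count of 17 was 3 without ΔTgace1 xylan replicate 2, 36 without ΔTgace1 cellulose replicate 3, 27 without ΔTgace1 xylan replicate 1, 26 without ΔTgace2 cellulose replicate 2, 11 without ΔTgace2 xylan replicate 1 and 10 without either ΔTgace2 cellulose replicate 3 or ΔTgace2 xylan replicate 2. The iron transporter OPB41258 and the ferrooxidoreductase OPB41257 had the largest of these interactions among the genes described here, at -5.59 (adjusted p = 0.000469) and -5.56 (adjusted p = 1.46e-05). In ΔTgace2 they had differences of -1.05 and -1.42, and in ΔTgace1 differences of 4.54 and 4.14, with 231, 126 and 993 RPKM of OPB41258 on cellulose and 60.4, 0.432 and 25.3 RPKM on xylan. In a fit of the 12 libraries alone the adjusted p-values were 0.184 and 0.172. For xyn1 (OPB46017) the interaction was -4.35 (adjusted p = 0.00746) and for the GABA permease OPB39313 -2.65 (adjusted p = 0.00485). Without ΔTgace1 xylan replicate 2 they were -3.18 (adjusted p = 0.126) and -2.54 (adjusted p = 0.0264), and that of OPB41258 was -3.99 (adjusted p = 0.0169). The call of xyn1 was also lost without ΔTgace2 cellulose replicate 2 or 3, ΔTgace2 xylan replicate 1 or 2, or ΔTgace1 cellulose replicate 3 (adjusted p of 0.0209 to 0.0396). That of the permease was lost without ΔTgace2 cellulose replicate 1 or 3, ΔTgace2 xylan replicate 2, ΔTgace1 xylan replicate 3 or ΔTgace1 cellulose replicate 3 (adjusted p of 0.0114 to 0.0326). In the fit of the 12 libraries the adjusted p was 0.202 for xyn1 and 0.0668 for the permease. With a pseudocount of 0.1 RPKM that of xyn1 was 0.062 and that of OPB41258 0.0149, and with the same RPKM total the permease had -2.16 (adjusted p = 0.0176).

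**Figure D5:**
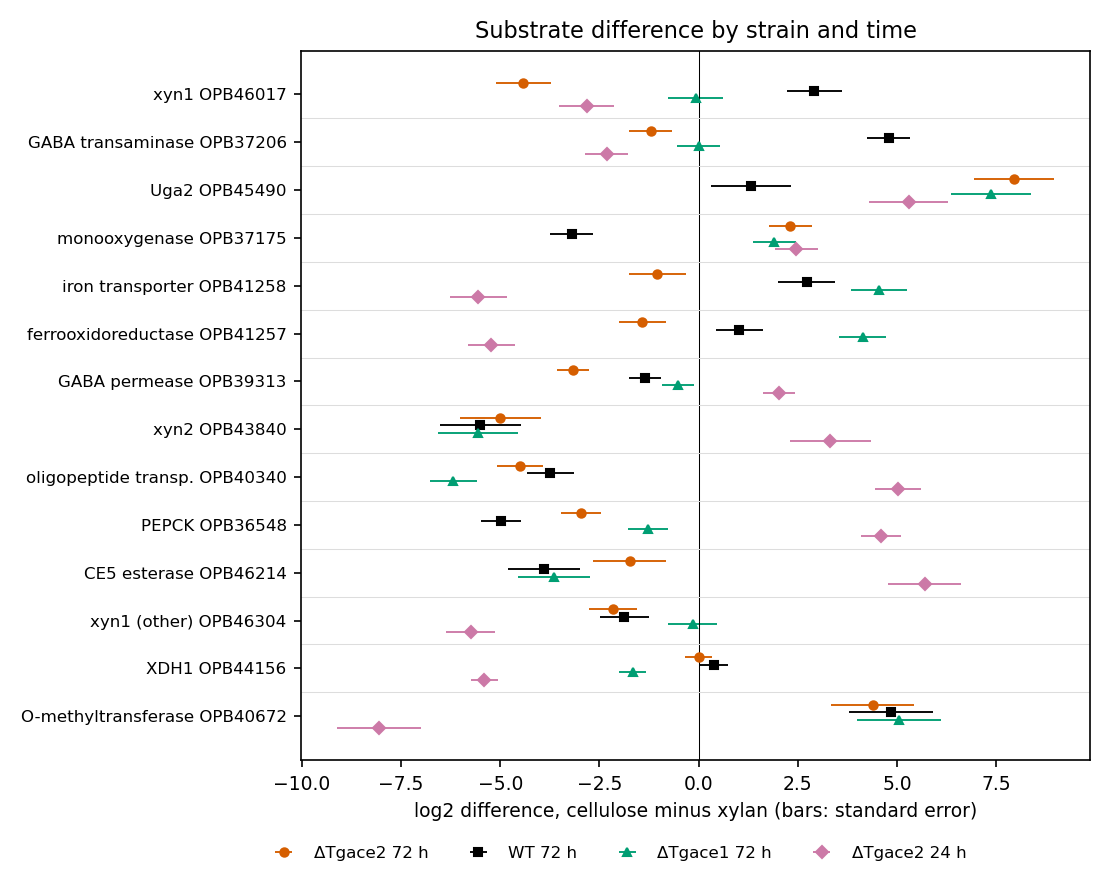
Difference of mean log2(RPKM + 1), cellulose minus xylan, with its standard error (horizontal axis), for 14 genes (rows) in ΔTgace2 at 72 h (circles), WT at 72 h (squares), ΔTgace1 at 72 h (triangles) and ΔTgace2 at 24 h (diamonds). For xyn1 OPB46017 the ΔTgace2 value of -4.42 lies left of 0 and the WT value of 2.92 right of it, and for PEPCK the 72 h values are negative and the ΔTgace2 24 h value is 4.60.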

How the data were processed

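RNA of mycelia was sequenced as paired Illumina reads. According to the submitters' processing notes and the study's methods, the authors filtered reads, aligned them to the NJAU4742 genome with TopHat2 (Bowtie2 inside it), and normalized with Cuffnorm. Tool versions and the scaling option are not given in the sources used here. The deposited RPKM values, 1 column per library, are normalized and not counts, so no count model was used. The methods speak of FPKM, the table of RPKM.

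Values were taken as log2(RPKM + 1) and fitted with limma 3.58.1 (R 4.3.3) as 34 groups over 100 libraries, with 66 residual degrees of freedom, an intensity trend and Benjamini-Hochberg adjustment over 10026 genes that exceeded 1 RPKM in at least 2 libraries. The call limits (adjusted p of at most 0.01, a difference of at least 2 in size, a mean above 2 RPKM) follow the study's, with adjusted in place of raw p. Shared variance lets a difference of the 6 libraries be judged by the spread in all groups. Differences on the log2(RPKM + 1) scale understate changes of low genes. Intervals from counting could not be given, since the table holds no depth. Each group compared here has 3 libraries, which the methods call biological replicates, and 2 other groups of the model have 2. The labels give the same replicate numbers in each group, but the deviations of same-numbered cellulose and xylan libraries correlated at -0.01, 0.04 and 0.05 across genes, so no pairing was used.

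The members and lists were chosen with earlier results of these data known, and the 28 lists, built from words of the annotation and the study's enzyme groups, were trimmed by annotation after values had been seen, so they carry no test. Genes were named by a rule: the 25 largest annotated rises and falls with non-overlapping libraries, all members of the lists for cellulases, β-glucosidases, xylanases, xylan side chains, pentose catabolism and regulators, up to 8 genes of each other list, genes named by ID in the study, the 8 largest of each interaction in either direction, and up to 4 hypothetical genes in each direction. It gave 279 genes, of which 84 are described. Cell type markers were conidiation genes. Alternatives were other pseudocounts (0.1 and 2), no filter or a stricter one (5 RPKM in 3 libraries), median or total scaling, array weights, fits of only the groups compared, replicate blocks, other call limits and each library left out. Other lists counted were wall glucanases, proteases, fatty acid oxidation, cytochrome P450, secondary metabolism, redox defence and Zn2Cys6 regulators. The script was checked on simulated data. Figures were drawn with matplotlib 3.10.9.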

Additional observations from a re-analysis of the deposited data

Results flagged for a closer look

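Genes are listed here because the substrate difference of ΔTgace2 at 72 h differed from that of another strain or time by a test of the interaction itself. Against WT, 217 genes had a higher and 49 a lower difference in ΔTgace2, with xyn1 (OPB46017) at -7.34, a 4-aminobutyrate aminotransferase (OPB37206) at -6.0, egl2 (OPB43431) at 4.16, a flavoprotein monooxygenase (OPB37175) at 5.51, Uga2 (OPB45490) at 6.62 and OPB45488 at 7.13. With the same RPKM total the counts were 77 and 203, and without WT cellulose replicate 2 they were 299 and 234. The egl2 interaction lost its call without that library, with array weights and in the fit of the 12 libraries alone. Against ΔTgace1, 17 genes had a lower difference in ΔTgace2, among them an iron transporter (OPB41258) at -5.59, a ferrooxidoreductase (OPB41257) at -5.56, xyn1 (OPB46017) at -4.35 and a GABA permease (OPB39313) at -2.65. The same RPKM total gave 24 higher and 16 lower here. Against 24 h in the same strain, 541 genes had a higher and 601 a lower difference at 72 h, or 633 and 394 with the same RPKM total. The oligopeptide transporter OPB40340 stood at -9.53, xyn2 (OPB43840) at -8.31, XYN3 (OPB40690) at -8.14, PEPCK (OPB36548) at -7.56 and the CE5 esterase OPB46214 at -7.44. The xyn1 gene OPB46304 stood at 3.59, XDH1 (OPB44156) at 5.40 and the O-methyltransferase OPB40672 at 12.44.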

How the results depend on the processing

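Of 84 genes described in the cellulose against xylan comparison, 64 were called. In all alternatives followed gene by gene except the replicate block in the fit of the 6 libraries, 49 kept call and direction throughout. In these, 15 lost the call in at least 1, none changed direction, and 4 uncalled genes gained a call. The pseudocount ended the call of OPB46304 (0.1, adjusted p = 0.0997), OPB43779 (0.1) and OPB43505 (both), and of OPB35984 (2, difference -1.74), and the same RPKM total that of OPB46304, OPB38657 (-1.98), OPB43505 and OPB35984. Fitted alone, the 6 libraries gave 183 of the 220 higher and 116 of the 142 lower genes. With the replicate block in the model of all groups all 220 and 142 were kept, but with the replicate block in the fit of the 6 libraries limma called 0 higher and 0 lower, the smallest adjusted p being 0.0166, with 4337 genes at an unadjusted p of at most 0.05. At an adjusted p of at most 0.05 and a difference of at least 1, the counts were 853 higher and 764 lower. For the WT interaction the 266 calls became 589 with array weights, 60 in the fit of the 12 libraries alone, 2 with the replicate block there, 1230 at the looser limits and 237 to 533 when a library was left out. With the same RPKM total they became 280, with 77 higher and 203 lower in place of 217 and 49. For the ΔTgace1 interaction the 17 calls became 11 with a pseudocount of 0.1, 40 with the same RPKM total, 100 with array weights, 3 in the fit of the 12 libraries, 0 with the replicate block there (1512 genes at an unadjusted p of at most 0.05), 63 at an unadjusted p of at most 0.01, 145 at the looser limits and 3 to 36 when a library was left out. For the 24 h interaction the 1142 calls became 1168 in the fit of its 12 libraries alone, 1156 with the replicate block there and 3008 at the looser limits. The fits of few libraries have fewer degrees of freedom, and the other limits define a call differently. Why the counts changed under any alternative was not tested. Low values limit the genes near 1 RPKM, whose differences depend on the pseudocount.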
